A study of Bos taurus with 16 samples.

Results

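Bone morphogenetic proteins (BMPs) are secreted dimers of the TGF-beta family. They bind type I and type II serine/threonine kinase receptors, which phosphorylate SMAD1, SMAD5 and SMAD9, and these enter the nucleus with SMAD4 and switch on target genes such as the ID genes and the homeobox genes MSX1 and MSX2. In the brain, BMPs are known as signals of the dorsal midline, the choroid plexus and the meninges, and as factors that steer neural progenitors towards astrocytes. The transcript levels of 4 BMP ligands, BMP4, BMP5, BMP6 and BMP7, and of the target gene MSX1 are described here in the prefrontal cortex (PFC) of cattle. These 5 genes of the 27607 measured carry symbols in the study's own list of genes that differed between the breeds, and so were selected on the measured difference in these same animals. Their differences between the breeds, and whether the fit across all genes calls them, are therefore given as a description that supports nothing, and all 5 passed the filter on low values.

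RNA from the PFC of 16 non-castrated bulls was sequenced once per animal, with 8 bulls of the Lidia breed, selected for agonistic behaviour and labelled aggressive, and 8 Wagyu bulls, labelled non-aggressive. The Lidia bulls came as 4 animals from the La Quinta farm and 4 from the Montealto farm, whereas the 8 Wagyu bulls all came from the farm Nuestro Buey. All bulls were 3 years old except Agg_8174, which was 4 years old, and the Lidia bulls are named here as in their labels (Agg_8174) and the Wagyu bulls by their label's number (Wagyu 1). Tissue was taken at the bullring for Lidia and at the slaughterhouse for Wagyu, so that breed, farm, rearing, handling and place of sampling cannot be told apart.

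The deposited values are FPKM, that is, fragments scaled to the length of the transcript and to the number of mapped fragments, so that levels can be compared between genes. The fragments behind them were not counted but estimated from the coverage per FPKM, with 200 bases taken per fragment. The estimates were 13.7 M to 34.8 M per Lidia bull and 7.67 M to 37.0 M per Wagyu bull (M, 10 to the power 6). The lowest of each breed were those of Agg_8324 and Wagyu 5. The FPKM of Wagyu 5 and Agg_8324 were high across all genes, with scaling factors of 2.21 and 1.78 against 0.617 to 1.13 in the other 14 animals. Levels are therefore given as FPKM divided by these factors (rescaled FPKM), and differences on the log2(rescaled FPKM + 0.1) scale, which understates the change of low genes. Defining markers of cortical neurons were present in every animal, and none of the 8 listed was at 0. Their summed level was 383 to 581 FPKM in Lidia (median 475) and 475 to 799 FPKM in Wagyu (median 621). The lowest sums were 383, 397 and 407 FPKM in Agg_8324, Agg_8162 and Agg_8320. The median difference, Lidia minus Wagyu, was -0.44, with 0 of the 8 called higher and 1 called lower in Lidia. These markers also carry symbols only through the study's list of differing genes, so nothing is read from their calls.

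On the ARS-UCD 1.2 assembly, BMP4 (ENSBTAG00000003835) lies on the minus strand at chr10:66518527-66525667 with 4 exons. BMP5 (ENSBTAG00000012870) spans chr23:4470532-4614742 on the plus strand with 7 exons, and BMP6 (ENSBTAG00000019234) lies on the same chromosome at chr23:47503385-47662574 on the minus strand, also with 7 exons. BMP7 (ENSBTAG00000015362) occupies chr13:58889622-58975046 on the plus strand with 7 exons, and 1 further annotated gene overlaps its span. MSX1 (ENSBTAG00000010875) is compact, with 2 exons at chr6:104281506-104285802 on the minus strand. A single annotated transcript carried the value of every gene but BMP6, whose second transcript made up at most 1.62% of the gene's FPKM and exceeded 0.01 FPKM in 3 animals.

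All 5 transcripts were low. BMP7, a ligand that often pairs with other BMPs, was the highest in both breeds, with a median of 3.35 FPKM in Lidia and 2.04 FPKM in Wagyu. BMP6 and BMP4 followed, at 1.97 and 1.96 FPKM in Lidia and 0.518 and 0.425 FPKM in Wagyu, and BMP5 and MSX1 were lowest, at 1.19 and 1.04 FPKM in Lidia and 0.301 and 0.216 FPKM in Wagyu. BMP7 exceeded BMP6 in 8 of 8 bulls of each breed, and so did BMP4 over BMP5 (exact two-sided sign-flip tests within animals, p = 0.00781 each, adjusted p = 0.0156 over the 8 neighbouring pairs compared). The neighbours BMP6 and BMP4 did not differ beyond their spread (adjusted p = 0.479 in Lidia and 0.313 in Wagyu by the same exact test), nor did BMP5 and MSX1 (adjusted p = 0.602 in both breeds, exact test). This comparison of levels was added after the values were seen. The pairs were neighbours in the order of these same medians, so the values tested also chose the pairs and their direction. The p of 0.00781 is the smallest that the sign-flip test allows with 8 animals. Read depth at these genes was modest, from 0.478-fold coverage for MSX1 in its shallowest animal to 36.9-fold for BMP7 in its deepest. The confidence bounds that Cufflinks gives for an animal's FPKM reached 70.7% of the value on either side for MSX1, and at most 18.2% for BMP7. These bounds cover the error within 1 library and not the spread between animals.

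BMP4, a ligand of the BMP2/4 branch, ranged in the Wagyu bulls from 0.268 FPKM (Wagyu 1) over a median of 0.425 to 1.41 FPKM (Wagyu 4). In the Lidia bulls it ranged from 0.575 FPKM (Agg_8165) over a median of 1.96 to 4.79 FPKM (Agg_8162). The groups overlapped: 5 of the 8 Lidia bulls exceeded all Wagyu bulls, and 6 of the 8 Wagyu bulls lay below every Lidia bull. The difference between the breeds was 1.56 ± 0.41 (SE, 8 against 8) on the log2 scale. By farm, BMP4 was 0.762, 2.45, 3.21 and 2.68 FPKM in the La Quinta bulls Agg_8312, Agg_8314, Agg_8320 and Agg_8324. In the Montealto bulls Agg_8162, Agg_8165, Agg_8171 and Agg_8174 it was 4.79, 0.575, 1.06 and 1.46 FPKM. Each farm thus held bulls within the Wagyu range and bulls above it, with 3 above it at La Quinta and 2 at Montealto.

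BMP5, a ligand of the BMP5/6/7 branch, was at 0.141 FPKM in the lowest Wagyu bull (Wagyu 1), 0.301 at the median and 0.849 in the highest (Wagyu 3). Its Lidia values ran from 0.475 FPKM (Agg_8165) over a median of 1.19 to 2.25 FPKM (Agg_8320). A difference of 1.54 ± 0.34 (SE) separated the breeds, and 4 of 8 Lidia bulls were above every Wagyu bull. The overlap came from Wagyu 3, since 7 of the 8 Wagyu bulls lay below every Lidia bull. The La Quinta values were 0.589, 1.62, 2.25 and 2.06 FPKM, and the Montealto values 2.22, 0.475, 0.598 and 0.764 FPKM, in the same order of bulls as above. The Lidia bulls formed separate clusters of 4 and 4 for this gene, with Agg_8162, Agg_8314, Agg_8320 and Agg_8324 in the upper one.

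BMP6, of the same branch as BMP5 and also known as the hepatic signal for hepcidin, had values from 0.281 FPKM (Wagyu 12) over a median of 0.518 to 1.53 FPKM (Wagyu 3) in the Wagyu group. In the Lidia group the lowest was 0.781 FPKM (Agg_8312), the median 1.97 and the highest 3.90 FPKM (Agg_8324). On the log2 scale Lidia exceeded Wagyu by 1.58 ± 0.40 (SE). Again 4 of 8 Lidia bulls exceeded every Wagyu bull, and the Wagyu bulls above the lowest Lidia value were Wagyu 3 and Wagyu 4. La Quinta bulls had 0.781, 2.55, 3.74 and 3.90 FPKM and Montealto bulls 3.63, 1.11, 0.970 and 1.40 FPKM. These split into the same clusters of 4 as for BMP5.

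BMP7 differed least and varied least. Wagyu values ran from 1.55 FPKM (Wagyu 1) over a median of 2.04 to 3.34 FPKM (Wagyu 3), and Lidia values from 2.24 FPKM (Agg_8174) over a median of 3.35 to 4.92 FPKM (Agg_8162). The difference was 0.61 ± 0.18 (SE) on the log2 scale. Here 4 of 8 Lidia bulls were above every Wagyu bull. The coefficient of variation between animals was 30.5% in Lidia and 27.1% in Wagyu, against 54.9 to 67.9% in Lidia and 60.7 to 98.8% in Wagyu for the other 4 genes. La Quinta bulls were at 2.29, 3.00, 4.34 and 4.00 FPKM and Montealto bulls at 4.92, 2.41, 3.70 and 2.24 FPKM, so the farms covered much the same range.

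MSX1, a homeobox repressor that BMP signalling switches on, was at 0.118 FPKM in the lowest Wagyu bull (Wagyu 1), 0.216 at the median and 1.22 FPKM in the highest (Wagyu 3). In Lidia it was at 0.447 FPKM (Agg_8312) at the lowest, 1.04 at the median and 2.13 FPKM (Agg_8324) at the highest. The breeds differed by 1.55 ± 0.38 (SE). Only 3 of the 8 Lidia bulls exceeded all Wagyu bulls, since Wagyu 3 lay above the other 5, while 6 of 8 Wagyu bulls lay below every Lidia bull. At La Quinta MSX1 was 0.447, 0.967, 1.80 and 2.13 FPKM, and at Montealto 1.93, 0.544, 0.708 and 1.11 FPKM.

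**Figure D1:**
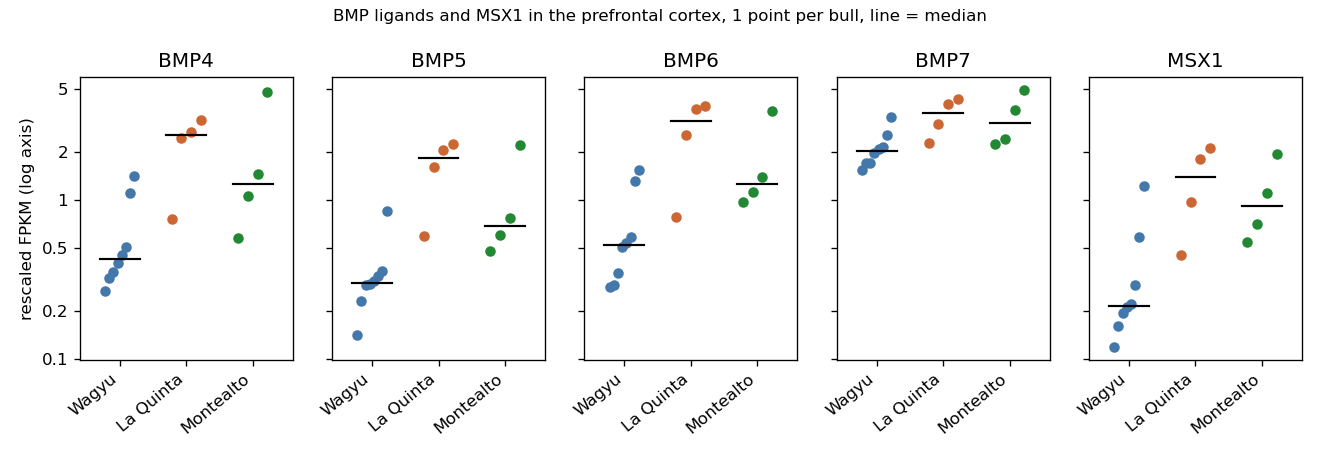
Rescaled FPKM (log axis) of the 5 genes in the 8 Wagyu, 4 La Quinta and 4 Montealto bulls, with 1 point per bull and the median of each group as a line. The medians of both farms lie above the Wagyu median for every gene, and in no gene do all Lidia points lie above all Wagyu points.

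For each of the 5 genes, all 8 Lidia bulls lay above the Wagyu median. The choice of the genes on this contrast favours such a pattern. Its share over all genes was not computed, and nothing is read from it. In the limma fit across 16577 genes, BMP4, BMP5, BMP6 and MSX1 were called higher in Lidia (adjusted p of at most 0.05 and a log2 difference of at least 0.1), as were 3.33% of all genes tested (4.99% were called in either direction), and BMP7 was not. Since this contrast chose the genes, nothing is read from that count. For 0 of the 5 genes did every Lidia bull exceed every Wagyu bull, which held for 0.386% of all genes. On the FPKM as deposited, 0 of 16614 genes were called by limma, against 1022 (6.15%) at an unadjusted p under 0.05, and 0 of the 5 genes were called. Without Wagyu 5 and Agg_8324, 207 genes and 0 of these 5 were called. BMP5 was called without any single animal. The calls of BMP4, BMP6 and MSX1 were lost on leaving out any one of Agg_8162, Agg_8314, Agg_8320 and Agg_8324 and Wagyu 1, 5, 6, 7, 9 and 12, and BMP7 was called on leaving out any one of Agg_8165, Agg_8174 and Agg_8312 and Wagyu 3.

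Each farm was also set against the Wagyu bulls, which both comparisons share. La Quinta minus Wagyu was 1.78 ± 0.51 for BMP4, 1.91 ± 0.40 for BMP5, 1.87 ± 0.48 for BMP6, 0.64 ± 0.23 for BMP7 and 1.67 ± 0.48 for MSX1 (log2, SE, 4 against 8). Montealto minus Wagyu was 1.34 ± 0.51, 1.18 ± 0.40, 1.29 ± 0.48, 0.58 ± 0.23 and 1.43 ± 0.48 for the same genes. The Montealto values lean on Agg_8162: without it they were 0.79 for BMP4, 0.75 for BMP5, 0.90 for BMP6, 0.37 for BMP7 and 1.12 for MSX1. BMP5 was called for La Quinta, where 0.609% of genes were called higher, and none of the 5 was called for Montealto, where 1.28% were.

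The difference between the farms did not enter the choice of the genes and was tested. La Quinta minus Montealto was 0.44 for BMP4 (95% interval -0.80 to 1.68), 0.73 for BMP5 (-0.27 to 1.72), 0.58 for BMP6 (-0.61 to 1.76), 0.067 for BMP7 (-0.50 to 0.64) and 0.24 for MSX1 (-0.94 to 1.41). None passed limma's test over all genes, with adjusted p-values from 0.828 for BMP5 to 0.971 for BMP7, and 15 of 16577 genes (0.0905%) passed it, with 5.89% at an unadjusted p under 0.05. Exact two-sided permutation tests of 4 against 4 bulls gave p = 0.571, 0.343, 0.429, 0.80 and 0.714 in the same order, where 0.0286 is the smallest p that this design allows. Single bulls moved these values: that of BMP4 was 0.033 without Agg_8165 and 0.99 without Agg_8162, that of BMP5 0.49 and 1.16 without the same bulls, and that of BMP6 0.34 without Agg_8324 and 1.07 without Agg_8312. The intervals reach beyond 1 log2 unit for every gene but BMP7, so that differences of that size between the farms remain possible.

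**Figure D2:**
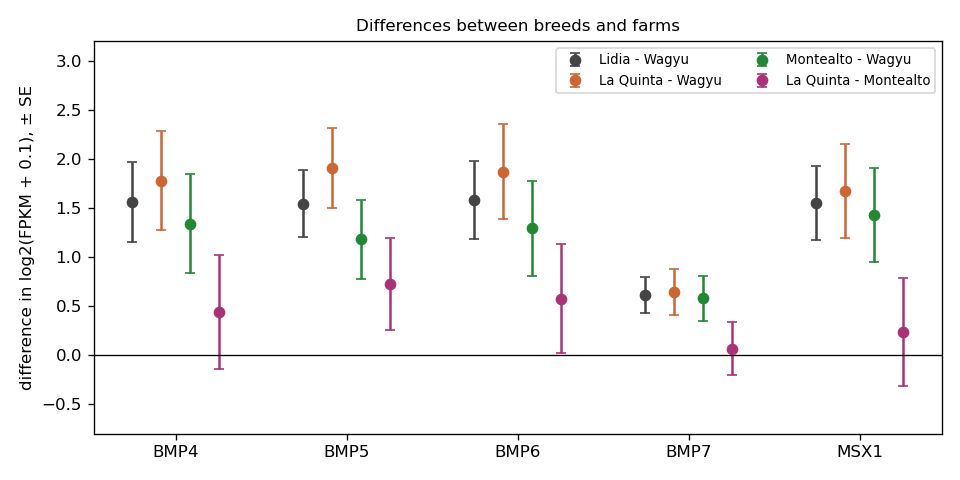
Differences in log2(FPKM + 0.1) with their standard errors for the 5 genes, for Lidia minus Wagyu, each farm minus Wagyu and La Quinta minus Montealto. The breed differences lie near 1.55 for BMP4, BMP5, BMP6 and MSX1 and at 0.61 for BMP7, whereas the farm differences lie between 0.067 and 0.73.

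Within a breed, the question was whether animals high in a ligand were also high in the other ligands and in the target gene. Agg_8162, Agg_8314, Agg_8320 and Agg_8324 were the 4 highest Lidia bulls for each of BMP4, BMP5 and BMP6, and 3 of them were among the 4 highest for BMP7 and for MSX1. At the other end, Agg_8165 was lowest for BMP4 and BMP5 and Agg_8312 for BMP6 and MSX1. Among the Wagyu bulls, Wagyu 3 was highest for every gene but BMP4, for which it ranked just below Wagyu 4, and Wagyu 1 was lowest for every gene but BMP6, for which only Wagyu 12 was lower.

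Correlations were computed over the animals of a breed only where these did not fall into separate clusters. BMP5 and BMP6 split the Lidia bulls into 4 and 4, and BMP4 and BMP6 split the Wagyu bulls into 6 and an upper pair, Wagyu 3 and Wagyu 4. This left 13 of the 20 combinations of pair and breed, of which 6 used all 8 animals and the others the 6 lower Wagyu bulls. Pearson's r was positive in all 13 combinations, and 2 passed the adjustment over them.

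In the Lidia bulls BMP4 and MSX1 rose together, with r = 0.91 (exact permutation p = 0.0033, adjusted p = 0.0214) and Spearman's rho = 0.88 (exact permutation p = 0.00724, adjusted p = 0.0696). Without Agg_8162 and Agg_8165, the animals farthest from the median of BMP4, r was 0.90 over 6 bulls (exact permutation p = 0.0181, adjusted p = 0.108 over the 6 combinations of 8 animals). Without any one of Agg_8312, Agg_8320, Agg_8162, Agg_8165 and Agg_8174 the correlation missed the threshold, with r of 0.90 to 0.92 and adjusted p of 0.0503 to 0.0664 (exact permutation tests). Within a farm there were only 4 bulls, too few for a correlation. In the Wagyu bulls, BMP5 and MSX1 gave r = 0.90 (exact permutation p = 0.00216, adjusted p = 0.0214) and rho = 0.86 (exact permutation p = 0.0107, adjusted p = 0.0696). It missed the threshold without Wagyu 1 (r = 0.89, exact permutation, adjusted p = 0.104) and without Wagyu 3 (r = 0.66, adjusted p = 0.297). Without Wagyu 1 and Wagyu 3, r fell to 0.53 over the 6 remaining bulls (exact permutation p = 0.279), so that this relation rests on those animals. Neither pair was particular to ligand and target. Over all 16 animals, with each breed's mean subtracted, MSX1 ranked 112 among the genes most like BMP4. Among those most like BMP5 it ranked 64.

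The other combinations over 8 animals did not pass the adjustment. BMP7 gave r = 0.80 with BMP4 and 0.77 with MSX1 in Lidia (exact permutation, adjusted p = 0.103 each), and r = 0.78 with BMP5 and 0.69 with MSX1 in Wagyu (exact permutation, adjusted p = 0.103 and 0.126). Without Wagyu 1 and Wagyu 3 these Wagyu values turned to -0.44 and -0.20. Among the 6 lower Wagyu bulls, r lay between 0.42 (BMP4 with MSX1) and 0.82 (BMP4 with BMP6), with adjusted p-values from 0.126 to 0.415 (exact permutation tests).

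**Figure D3:**
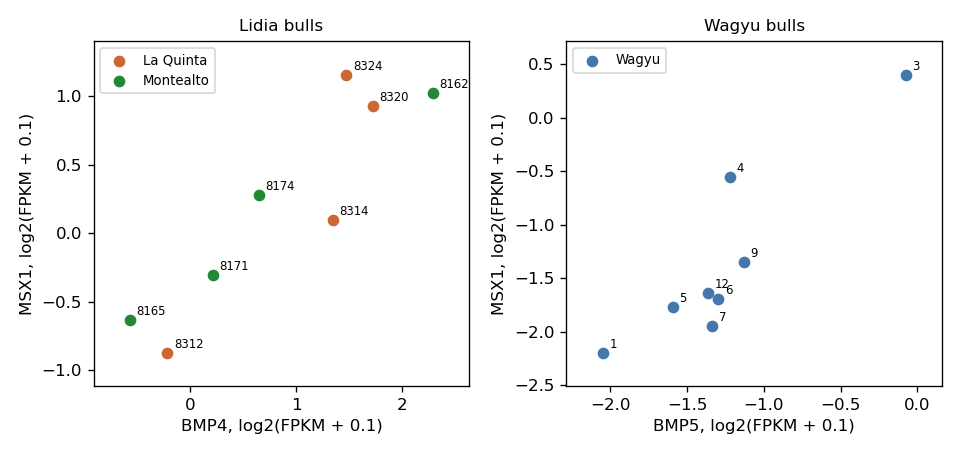
MSX1 against BMP4 in the 8 Lidia bulls and MSX1 against BMP5 in the 8 Wagyu bulls, both axes in log2(FPKM + 0.1), with 1 point per bull and its number beside it. The Lidia bulls spread along the whole line, with both farms at both ends, whereas in Wagyu bull 3 stands apart at the upper end of both axes and bull 1 lies at the lower end of both.

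The genes most like each member were sought over the 16 animals after subtracting each breed's mean, as a description in which all genes share the same libraries. For BMP4 the named genes with the highest r were COL1A2 (a fibrillar collagen chain, 0.96), SCARA5 (a scavenger receptor, 0.96) and POSTN (periostin, a matrix protein, 0.96), and these were the first 3 of all genes tested. For BMP5 they were THBS2 (a matricellular protein, 0.95), the transcription factor gene TBX18 (0.94) and DSE (an enzyme of dermatan sulfate synthesis, 0.94), with 1 unnamed gene above them. BMP6 was closest to WDR86 (0.97), IGF2 (a growth factor, 0.96) and EFEMP1 (an extracellular matrix protein, 0.96), with 1 unnamed gene among them.

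MSX1 was closest to ALDH1A2 (the retinoic acid synthesising enzyme, 0.95), WFIKKN2 (a secreted protein that binds TGF-beta family ligands, 0.94) and COL3A1 (a fibrillar collagen chain, 0.93), the first 3 of all genes. BMP7 had other neighbours, among them GNA14 (a G protein subunit, 0.92) and ZIC5 (a zinc finger transcription factor, 0.91). The other members ranked between 11 and 119 among the genes most like BMP4, BMP5, BMP6 or MSX1 where BMP7 is left aside. BMP7 ranked between 260 and 339 among them. COL1A2, TBX18, ALDH1A2 and COL3A1 belong to the list of meningeal fibroblast markers.

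In bulk tissue, fewer cells of a type and less RNA per cell cannot be told apart, and the levels of the genes were therefore set beside those of marker lists. As for the members, the markers carry symbols only because they are in the study's list of differing genes, so their calls and medians are largely fixed by that choice (3.33% of all genes were called higher and 1.66% lower), and nothing is read from them. Of 20 meningeal fibroblast markers 19 were named, none was at 0 in any animal, 9 were called higher in Lidia and 0 lower, and their median difference was 1.38 on the log2 scale, beside -0.01 over all genes. Their summed level was 111 to 299 FPKM in Lidia and 75.2 to 226 FPKM in Wagyu, of which APOD, a gene that oligodendrocytes also express, made up 49.8 to 95.4%. The sum was therefore also taken without APOD, a choice made after the values were seen. It was 21.6 to 142 FPKM in Lidia (median 59.8) and 10.1 to 43.4 FPKM in Wagyu (median 12.9).

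Without APOD, the 4 Lidia bulls with the highest sum, 79.9 to 142 FPKM, were again Agg_8162, Agg_8314, Agg_8320 and Agg_8324, and they alone lay above every Wagyu bull. The highest Wagyu sums were those of Wagyu 3 and Wagyu 4, at 43.4 and 38.1 FPKM, the animals with the upper BMP4 and BMP6 values of their breed. Agg_8174, at a sum of 39.6 FPKM, had 1.46 FPKM of BMP4, 0.764 of BMP5, 1.40 of BMP6, 2.24 of BMP7 and 1.11 of MSX1. Wagyu 4 had 1.41, 0.330, 1.32, 2.10 and 0.582 FPKM of these genes, lower for BMP5 and MSX1, and Wagyu 3 had 1.11, 0.849, 1.53, 3.34 and 1.22 FPKM. The part of this cell type in the difference of the 5 genes was not tested.

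**Figure D4:**
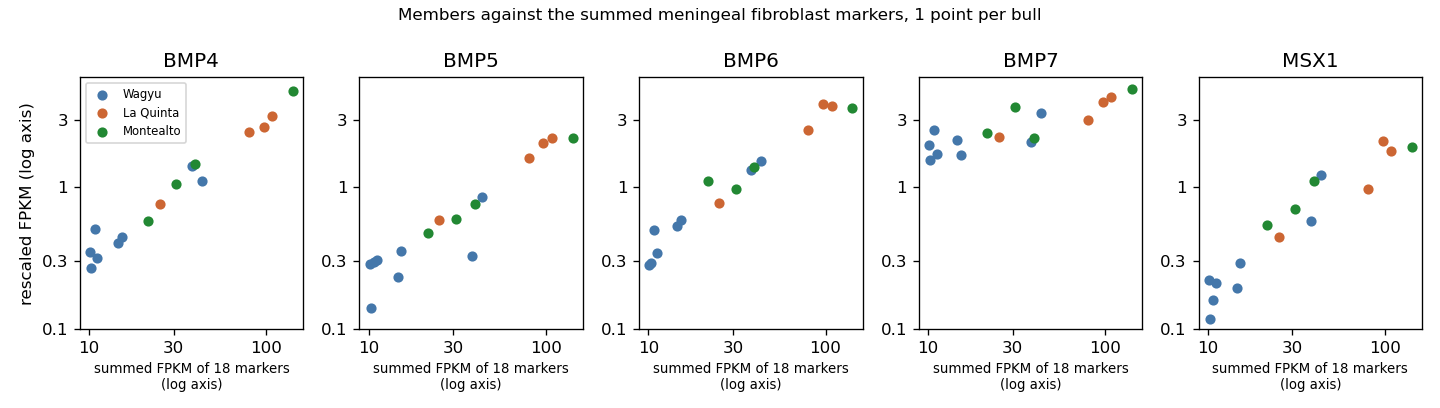
Rescaled FPKM of each of the 5 genes against the summed FPKM of 18 meningeal fibroblast markers (the list without APOD), both on log axes, with 1 point per bull and groups by colour. Points rise from left to right for BMP4, BMP5, BMP6 and MSX1, and less steeply for BMP7. For BMP5 and MSX1, Wagyu 4 (38.1 FPKM of markers) lies below Agg_8174 and Wagyu 3, the bulls with similar sums (39.6 and 43.4 FPKM).

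The summed levels of every list, meningeal fibroblasts included, overlapped between the breeds. Of the endothelial markers 4 of 9 were called higher, with sums of 35.1 to 119 FPKM in Lidia and 17.8 to 41.1 FPKM in Wagyu. The endothelial sum lay above that of every Wagyu bull in 6 Lidia bulls, against 4 for the meningeal sum without APOD. Of the astrocyte markers 6 of 7 named were called higher, at 369 to 626 against 218 to 550 FPKM. Mural cell markers (1 of 4 called higher) summed to 15.1 to 45.0 FPKM in Lidia and 7.49 to 33.7 FPKM in Wagyu, and microglial markers (2 of 5 called higher) to 29.9 to 51.0 and 14.5 to 35.7 FPKM. Oligodendrocyte markers, 1 of 9 called higher, summed to 123 to 394 FPKM in Lidia and 86.8 to 264 FPKM in Wagyu. Choroid plexus markers, 1 of 4 called higher, stayed between 2.72 and 21.9 FPKM in Lidia and between 1.07 and 11.1 FPKM in Wagyu. Of these, KRT8 was at 0 in at least 1 animal. By farm their sums did not overlap, at 2.72 to 4.62 FPKM in La Quinta and 9.30 to 21.9 FPKM in Montealto. This farm difference was not tested. The red blood cell gene HBB, not called, was 0.333 to 4.93 FPKM in Lidia and 0 to 1.84 FPKM in Wagyu. Agg_8165 stood apart in these sums: it alone gave the upper end for endothelial cells (119 FPKM against at most 45.3 in the other Lidia bulls) and oligodendrocytes (394 against at most 182), and it was also highest for mural cells, microglia and choroid plexus. Without it the breed differences were 1.76 for BMP4, 1.70 for BMP5, 1.68 for BMP6, 0.67 for BMP7 and 1.67 for MSX1. Since Agg_8165 was the lowest Lidia bull for BMP4 and BMP5, leaving it out raises those differences by itself. Nothing about cell types is read from these values. The part of these cell types in the difference was not tested.

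The rest of the BMP pathway was described from a list of 61 genes ordered by role. Only 20 of them carry a symbol here, because symbols came from the study's list of differing genes, so that a large share of called genes is fixed by that choice. Without the 5 members, 15 named genes remained, of which 8 were called higher in Lidia (3.33% of all genes), 1 lower (1.66%) and 6 not called, with a median difference of 0.79. No SMAD gene was among those named, nor any type I or type II receptor.

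The further named ligands of the list were activin subunits and GDF1, and none of them is a BMP. INHBB, which encodes the beta B subunit of activins, was higher in Lidia (0.791 ± 0.192 against 0.442 ± 0.110 FPKM, SD, n = 8 each). INHBA, which encodes the beta A subunit and overlaps another annotated gene, was lower (0.270 ± 0.109 against 0.523 ± 0.161 FPKM, difference -0.75). GDF1, a ligand of left-right patterning, was not called at 37.9 ± 31.0 against 20.6 ± 2.91 FPKM. The activin subunits thus went in opposite directions.

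Both named genes of the receptor group were called higher, a count largely fixed by the choice of named genes. BAMBI, a pseudoreceptor that damps BMP and TGF-beta signals, was at 2.21 ± 0.451 against 0.988 ± 0.315 FPKM, a difference of 1.12 ± 0.18 (SE). ENG, an endothelial co-receptor, differed by 0.81 ± 0.22 (SE). None of the 3 named secreted antagonists and modulators was called. WFIKKN2 had the largest difference of these, 1.73 ± 0.49 (SE), with GREM1, a BMP antagonist, at 0.44 and FSTL5 at -0.74. The level of WFIKKN2 was 0.645 ± 0.520 FPKM in Lidia and 0.103 ± 0.144 FPKM in Wagyu (SD). Its Wagyu mean thus lay close to the 0.1 added before the log2.

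Among the target genes, 6 of 8 named were called higher, with the member MSX1 included. This share too is largely fixed by the choice of named genes, and nothing is read from it. The inhibitors of basic helix-loop-helix factors ID1, ID3 and ID4 were at 10.4 ± 4.75, 14.1 ± 4.55 and 14.0 ± 2.89 FPKM in Lidia and 5.16 ± 2.04, 7.01 ± 3.35 and 7.58 ± 2.40 FPKM in Wagyu (SD, n = 8 each). Their differences were 1.00, 1.05 and 0.90 on the log2 scale. MSX2, the paralog of MSX1, was lower than MSX1 in level, at 0.454 ± 0.225 against 0.168 ± 0.122 FPKM, with a difference of 1.03. HEY2, a repressor shared with Notch signalling, differed by 0.66, and the transcription factor genes ATOH8 and GATA2 were not called at 0.70 and 0.79.

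**Figure D5:**
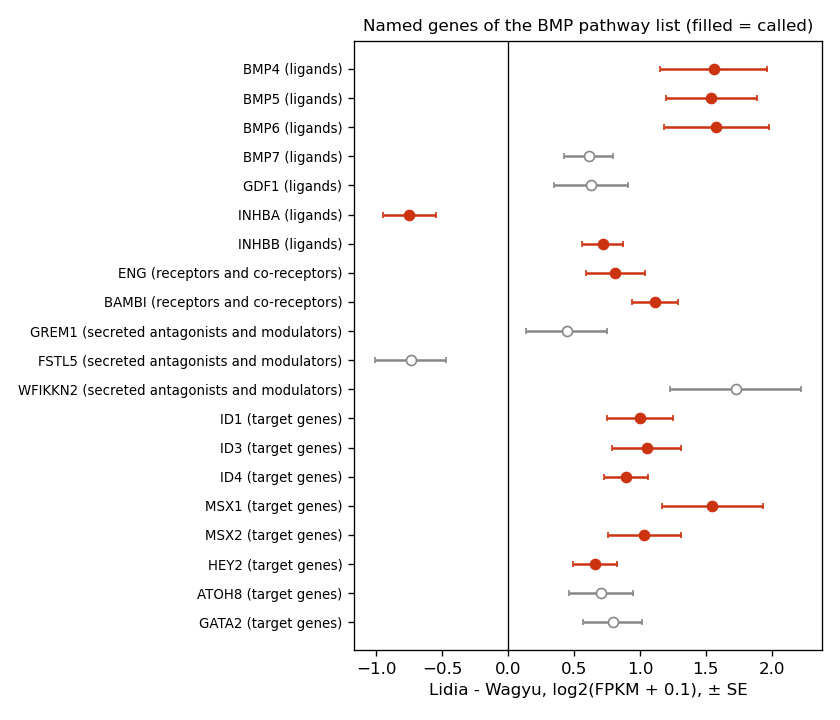
Lidia minus Wagyu in log2(FPKM + 0.1), with its standard error, for the 20 named genes of the BMP pathway list, ordered by role; filled red points passed the call and open grey points did not. INHBA and FSTL5 lie below 0 and the other 18 genes above it.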

How the data were processed

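Libraries were made with a stranded mRNA kit and sequenced as paired-end reads of 100 bases. The authors trimmed reads with PRINSEQ, aligned them with STAR 2.7.3a to ARS-UCD 1.2 and quantified transcripts with Cufflinks 2.2.1. The deposited values are one FPKM, with confidence bounds and coverage, per transcript and animal, written as text beside other attributes of 43984 transcripts, and precede the authors' Cuffdiff comparison. No read counts were used.

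FPKM was summed per gene, divided by median-of-ratios factors from 15998 genes above 0 in all 16 animals, filtered at a mean of 0.1, transformed as log2(FPKM + 0.1) and fitted in R 4.3.3 by limma 3.58.1 (variance trend, two-sided, Benjamini-Hochberg adjustment), tested on simulated data. Breed was fitted as 2 groups without covariates, and farms as 3 groups sharing 1 spread. The labels do not give the farm, which came from the study's supplement. Permutation tests used Python 3.11.15 with scipy 1.17.1, and figures matplotlib 3.10.9.

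Symbols came from the study's list of differing genes, paired by position: 1161 of 1197 entries were paired, and of 55 paired entries named by an Ensembl identifier 53 had that identifier. The members and lists were chosen with earlier results of these data known. Named are the 5 members, pathway genes with a symbol and, per member, the 3 named genes of most similar pattern. A gene that this rule names for BMP7 is not reported here. Animals counted as separate clusters where the widest gap exceeded the range on either side with at least 2 animals a side, a rule chosen after the values were seen. Promoter motifs were not analysed here. Alternatives were other scalings, pseudocounts of 1 and 0.01, filters, no variance trend and leaving out animals.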

Additional observations from a re-analysis of the deposited data

Results flagged for a closer look

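In the Wagyu group, BMP5 in Wagyu 3 (0.849 FPKM) stood apart from the other 7 bulls: its gap to the next animal was 0.534 of the group's whole range on the log2 scale, just above the limit of Dixon's test for 8 values. It was the only such value among 20 groups of gene and animals tested (5 genes in the breeds and the Lidia farms), of which chance flags about 1 in 20. Wagyu 3 also had the highest BMP6, BMP7 and MSX1 and the highest meningeal marker sum without APOD (43.4 FPKM) of its breed. The cause was not tested.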

How the results depend on the processing

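The Lidia bulls had the higher mean for each of the 5 genes under every alternative that was run, with differences from 0.87 to 1.76 for BMP4, 0.72 to 1.79 for BMP5, 0.89 to 1.76 for BMP6, 0.46 to 0.70 for BMP7 and 0.66 to 1.86 for MSX1. The genes were chosen on this contrast in these same animals, so that direction was largely fixed in advance. Nothing is read from its constancy. A pseudocount of 1 compresses low values and gave 0.72 for BMP5 and 0.66 for MSX1, with 0.92 and 0.74 for La Quinta against Wagyu and 0.59 for MSX1 in Montealto against Wagyu. Called genes between the breeds were 827, against 0 as deposited, 207 without Wagyu 5 and Agg_8324 and 363 to 1424 on leaving out single animals. Of the members, 4 were called, against 0 as deposited, 0 without those 2 animals, 2 at a mean FPKM of at least 1 (BMP5 and MSX1 fall below that filter), 3 with a pseudocount of 1 and 3 without a filter (BMP4 not called in either) and 1 to 5 on leaving out single animals. Between the farms 15 genes were called, against 6 as deposited, 8 at a mean of at least 1, 7 in Lidia bulls alone, 8 without those 2 animals and 6 to 14 on leaving out single animals, and 0 members in all of these. The farm difference of BMP4 ranged from 0.033 to 0.99, that of BMP5 from 0.49 to 1.16, that of BMP6 from 0.34 to 1.07, that of BMP7 from -0.092 to 0.28 and that of MSX1 from -0.040 to 0.64 on leaving out single animals, and without Wagyu 5 and Agg_8324 those of BMP7 and MSX1 were -0.023 and -0.040.

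On the FPKM as deposited, where an inflated animal raises all its genes, correlations also passed for BMP4 with BMP7 (0.89) and BMP7 with MSX1 (0.90) in Lidia. In Wagyu they passed for BMP4 with BMP5 (0.92), BMP6 (0.96) and BMP7 (0.97), for BMP5 with BMP7 (0.83) and for BMP6 with BMP7 (0.89). On ranks, BMP4 with MSX1 in Lidia (rho 0.88) and BMP5 with MSX1 in Wagyu (rho 0.86) no longer passed. Without the 2 animals farthest from the median these were 0.90 and 0.53 and did not pass, and in Wagyu BMP5 with BMP7 was -0.44 and BMP7 with MSX1 -0.20. On leaving out single animals, Lidia values were 0.70 to 0.89 (BMP4 with BMP7, passing without Agg_8171), 0.90 to 0.94 (BMP4 with MSX1, not passing without 5 of the 8 bulls) and 0.69 to 0.89 (BMP7 with MSX1), and Wagyu values 0.35 to 0.85 (BMP5 with BMP7), 0.66 to 0.96 (BMP5 with MSX1, not passing without Wagyu 1 or Wagyu 3) and 0.15 to 0.87 (BMP7 with MSX1). The combinations of 6 Wagyu bulls were not run without single animals. No paired analysis was possible because the labels share no replicate number between the breeds. The low levels limit the precision, above all of MSX1.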
